A study of Homo sapiens with 21 samples.

Results

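The 42 genes described here encode proteins of the cornified envelope and of late epidermal differentiation. They were taken by symbol from a named list, matched to the Ensembl gene IDs of the count tables, and make up 42 of the 57500 genes counted. All 42 passed the filter on low counts that left 21958 genes for testing. The cornified envelope is the insoluble protein shell that replaces the plasma membrane when a keratinocyte ends its life at the skin surface. Precursors such as involucrin, the small proline-rich (SPRR) proteins and the late cornified envelope (LCE) proteins are cross-linked by transglutaminases onto a scaffold of plakins, while filaggrin packs the keratin filaments and lipids seal the spaces between cells. Many of these genes lie side by side in the epidermal differentiation complex, and squamous carcinomas of the bladder and other tissues use part of this programme.

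The RNA came from subcutaneous tumours of HT1376, an established human bladder carcinoma cell line, grown in female CB17 SCID mice that were 6 to 8 weeks old at the start, injected in the flank with Matrigel. Dosing began 11 to 15 days later, at average tumour volumes of 139 to 160 mm3. These mice lack mature T and B cells. The 7 groups of 3 libraries were tumours from mice given CPI-0209, Valemetostat, MAK683, tazemetostat, PF-06821497, CPI-1205 or vehicle, each compound at 75 mg/kg by mouth once a day, with tumours taken 1 hour after the dose on day 15. All 6 compounds inhibit PRC2, the polycomb complex whose catalytic subunits EZH2 and EZH1 methylate histone H3 on lysine and keep target genes silent. MAK683 is known to bind the EED subunit, and the other compounds to bind the catalytic subunit. Whether the 3 libraries of a group are 3 animals is not stated in the labels, and the p-values here reflect library-to-library spread, which may be technical. All comparisons with vehicle share the same vehicle libraries.

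Libraries held 9725690 to 25771778 counts. Levels are given as CPM, counts scaled to a common library size. In the smallest library, CPI-0209 library 3, a count of 0 allows a level of up to 0.287 CPM on that scale with a floor of 3 counts, which covers counting error only. Of the 42 genes, 40 had a count in every library. Luminal urothelial genes, a check on the labelled bladder origin, had a summed level of 4707 to 5467 CPM with CPI-0209 and 5276 to 5941 CPM with vehicle, while UPK3A, a uroplakin of mature umbrella cells, had no count with vehicle. The sources used here do not give the strand setting of the counting or a step that removed mouse reads. Of the exonic bases of CDSN, 93.8% overlap PSORS1C1 on the opposite strand, so without the strand setting it is not known whether reads of these 2 genes were told apart. Over all libraries CDSN had 23578 counts and PSORS1C1 had 8581. An antisense gene overlaps 27.7% of the exonic bases of ALOX12B, and CALML3-AS1 overlaps 8.18% of those of CALML3.

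A mark of resubmission stands on CPI-1205 libraries 2 and 3 both in the sample titles and in the count columns, but for PF-06821497 the titles put it on library 1 and the count columns on library 2. The sources used here do not settle which of these is meant, and the reading by count columns was chosen after seeing the data. The summed level of the 42 genes was 10306 CPM in PF-06821497 library 1, 5988 CPM in library 2 and 12708 CPM in library 3, so the library marked in the titles was not the lowest of its group. In 37 of the 42 genes PF-06821497 library 2 was below both others, against 36.4% of all genes tested. In CPI-1205 tumours both marked libraries were below the unmarked one in 35 of 42 genes, against 37.8% of all genes. The median difference over the 42 genes, marked in the count columns minus unmarked, was -1.004 in PF-06821497 and -0.99 in CPI-1205 tumours on the log2 CPM scale, while over all genes it was -0.01 and 0.01. Counts for these 2 compounds are given with and without the libraries marked by either reading, and both omissions leave CPI-1205 with 1 library, which is then assumed to vary like the other groups. What the mark stands for is not given in the sources used here, and its part in the results was not tested beyond those fits.

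**Figure D1:**
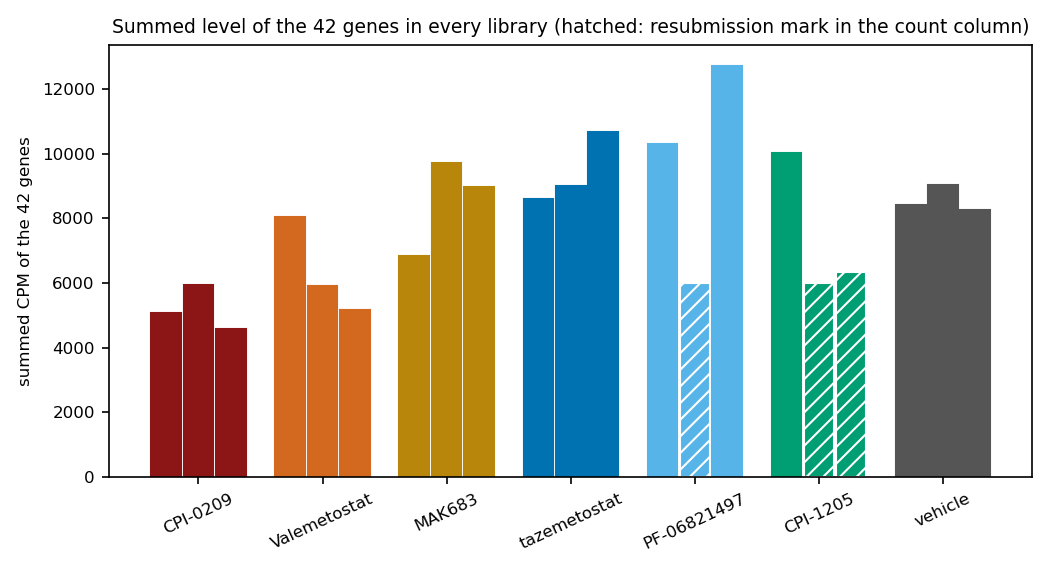
The summed level of the 42 genes in CPM, 1 bar per library, with the 3 libraries of each group side by side and hatching on libraries with the resubmission mark in their count column. The CPI-0209 libraries stand at 4561 to 5934 CPM and the vehicle libraries at 8268 to 9016 CPM, and the 3 hatched bars stand at 5988 to 6351 CPM.

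Promoter sequences were available in RefSeq for 33 of the 42 genes, in 42 windows running from 250 bases before to 50 bases after an annotated start. Both strands were searched for 4 motifs. TGANTCA, the site of the AP-1 (FOS and JUN) factors, was found in 17 of 33 genes, that is in 45.2% of their windows, against 7.71% of the 35116 windows of all genes. The TATA box letters TATAAA were in 35.7% of the genes' windows against 11.5% of all. The grainyhead-like letters AACCNGTT were in 7.14% against 1.73%, and the interferon-stimulated response element in 2.38% against 3.57%. The windows held few CG dinucleotides, with a median of 4.5 against 14 in all genes. The 250 bases before the start of 6 genes set promoters of genes that fell with CPI-0209 (FLG, SPRR2B and CALML5) beside those of genes that did not (IVL, SPRR2A and SPRR3). They are from RefSeq, GRCh38.p14, and read 5′ to 3′ along the gene's strand. Capitals mark matches to any of the 4 motifs.
FLG, chr1:152325240-152325489, minus strand: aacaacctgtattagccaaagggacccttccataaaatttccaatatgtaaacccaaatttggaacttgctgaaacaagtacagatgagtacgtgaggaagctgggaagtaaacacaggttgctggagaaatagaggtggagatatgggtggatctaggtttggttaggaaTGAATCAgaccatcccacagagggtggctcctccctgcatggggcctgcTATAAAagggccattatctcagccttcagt
SPRR2B, chr1:153071612-153071861, minus strand: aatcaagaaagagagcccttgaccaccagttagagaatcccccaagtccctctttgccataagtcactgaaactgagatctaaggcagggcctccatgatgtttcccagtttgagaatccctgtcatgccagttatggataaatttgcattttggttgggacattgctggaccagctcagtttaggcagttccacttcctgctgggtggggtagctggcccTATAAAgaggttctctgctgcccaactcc
CALML5, chr10:5499571-5499820, minus strand: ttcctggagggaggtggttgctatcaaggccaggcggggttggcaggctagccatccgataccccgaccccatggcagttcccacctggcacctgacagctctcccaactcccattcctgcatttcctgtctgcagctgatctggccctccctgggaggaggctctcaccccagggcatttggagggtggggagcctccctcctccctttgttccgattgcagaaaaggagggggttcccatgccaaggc
IVL, chr1:152908296-152908545, plus strand: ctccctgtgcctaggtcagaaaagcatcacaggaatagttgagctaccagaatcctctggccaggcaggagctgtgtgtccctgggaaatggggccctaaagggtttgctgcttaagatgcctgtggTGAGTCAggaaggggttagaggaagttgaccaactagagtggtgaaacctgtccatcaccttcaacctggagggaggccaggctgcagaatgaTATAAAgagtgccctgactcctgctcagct
SPRR2A, chr1:153057513-153057762, minus strand: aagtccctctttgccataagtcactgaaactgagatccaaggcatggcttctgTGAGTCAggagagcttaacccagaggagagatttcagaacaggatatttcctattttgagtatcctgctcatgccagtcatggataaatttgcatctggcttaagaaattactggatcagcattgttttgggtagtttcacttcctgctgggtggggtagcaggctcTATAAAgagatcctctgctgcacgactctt
SPRR3, chr1:153001499-153001748, plus strand: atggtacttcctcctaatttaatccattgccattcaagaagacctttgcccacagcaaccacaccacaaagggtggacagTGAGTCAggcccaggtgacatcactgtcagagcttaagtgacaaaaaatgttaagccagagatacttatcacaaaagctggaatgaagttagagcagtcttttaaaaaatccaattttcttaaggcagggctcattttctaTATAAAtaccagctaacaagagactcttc
The AP-1 letters stand in FLG (first base at -79), IVL (-123), SPRR2A (-197) and SPRR3 (-170), and a TATA box stands at -30 or -29 in FLG, SPRR2B, IVL, SPRR2A and SPRR3. CALML5 has none of the 4 motifs in its window. The RefSeq start of SPRR2B lies upstream of the gene span used for its counts. The same holds for SPRR1A, counted from chr1:152985231, with a RefSeq window ending at 152984130. The ASPRV1 windows, at chr2:70086224-70087625 with 21 to 38 CG dinucleotides each, lie outside its counted span of chr2:69960089-69962265. All these windows are part of the tallies here. Among the 20 genes with a window that fell with CPI-0209, 10 had an AP-1 match, against 5 of 10 that were not called and 2 of 3 that rose. A match describes the letters only and is no evidence of binding.

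In vehicle tumours the programme was expressed over a wide range. Per kilobase of exon, the highest level was that of PI3, which encodes elafin, an elastase inhibitor that is itself cross-linked into the envelope, at 1949 ± 418 CPM per kb (SD, n = 3). SPRR1A followed at 893 ± 162 CPM per kb and SPRR1B at 842 ± 115 CPM per kb, and these neighbours did not differ beyond their spread. The SPRR1A value rests on a counted exonic length of only 270 bases. Without scaling to length SPRR1A averaged 241 CPM and SPRR1B 522 CPM. In all, 15 genes stood above 100 CPM per kb. Filaggrin itself (FLG) was low on this scale at 6.17 ± 1.45 CPM per kb, well under involucrin (IVL) at 76.5 ± 6.52 CPM per kb. The 6 genes under 1 CPM per kb were TGM3, ARG1, TGM5, FLG2, HRNR and CRNN.

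With CPI-0209, 26 of the 42 genes fell and 3 rose, against 18.8% of all genes lower and 22.3% higher in the same comparison, and 41.1% in either direction (edgeR's quasi-likelihood test, adjusted p under 0.05). The largest falls were in FLG, FLG2, CALML5, CALML3, SPRR2B, SLURP1 and ARG1. Upper-quartile scaling changed the balance over all genes to 5858 higher and 2818 lower, against 4888 and 4129, and the median of all genes to 0.12, against -0.02, and left 23 of the 42 genes lower and 3 higher, with a median of -0.73. For Valemetostat it gave 3946 genes higher and 1924 lower, against 3303 and 2684. With Valemetostat 15 fell (12.2% of all genes) and 2 rose (15.0%; either direction 27.3%). With MAK683 5 fell (5.17%) and 1 rose (10.4%; either direction 15.6%), and with PF-06821497 4 fell (3.59%) and 2 rose (5.96%; either direction 9.55%). Without Valemetostat library 2 or vehicle library 3 the fall was called in 9 genes with Valemetostat, and without PF-06821497 library 2 or vehicle library 3 in 2 genes with PF-06821497. With MAK683 it was called in 2 genes without MAK683 library 1 and in 3 without any other single MAK683 or vehicle library. Counts with a library left out are of the 42 genes only and are not set against all genes. None was called with tazemetostat or CPI-1205, where 0% of all genes passed. The median log2 fold change over the 42 genes was -0.86 with CPI-0209, -0.60 with Valemetostat, -0.18 with MAK683, 0.10 with tazemetostat, 0.07 with PF-06821497 and -0.27 with CPI-1205, while over all genes tested it lay between -0.02 and 0.02. The CPI-0209 mean was the lowest of all 7 groups in 34 of the 42 genes. This was not counted over all genes, so it does not set the 42 genes apart. The libraries of a compound all lay below those of vehicle in 32 of the 42 genes with CPI-0209 and above them in 4 (55.0% of all genes apart in either direction). These counts were 25 and 2 with Valemetostat (47.0%), 11 and 4 with MAK683 (36.0%), 3 and 4 with tazemetostat (10.9%), 9 and 2 with PF-06821497 (27.3%) and 10 and 1 with CPI-1205 (20.0%). The groups overlapped in 27 of the 42 genes with MAK683 and in 31 with PF-06821497. Taken in either direction, the 42 genes were apart with these 2 compounds about as often as all genes. Of the 17 genes inside the epidermal differentiation complex (chr1:152153595-153150869, hg38) 10 fell and 2 rose with CPI-0209, and of the 25 elsewhere 16 fell and 1 rose. In bulk tissue, fewer cells of a type and less RNA per cell cannot be told apart.

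**Figure D2:**
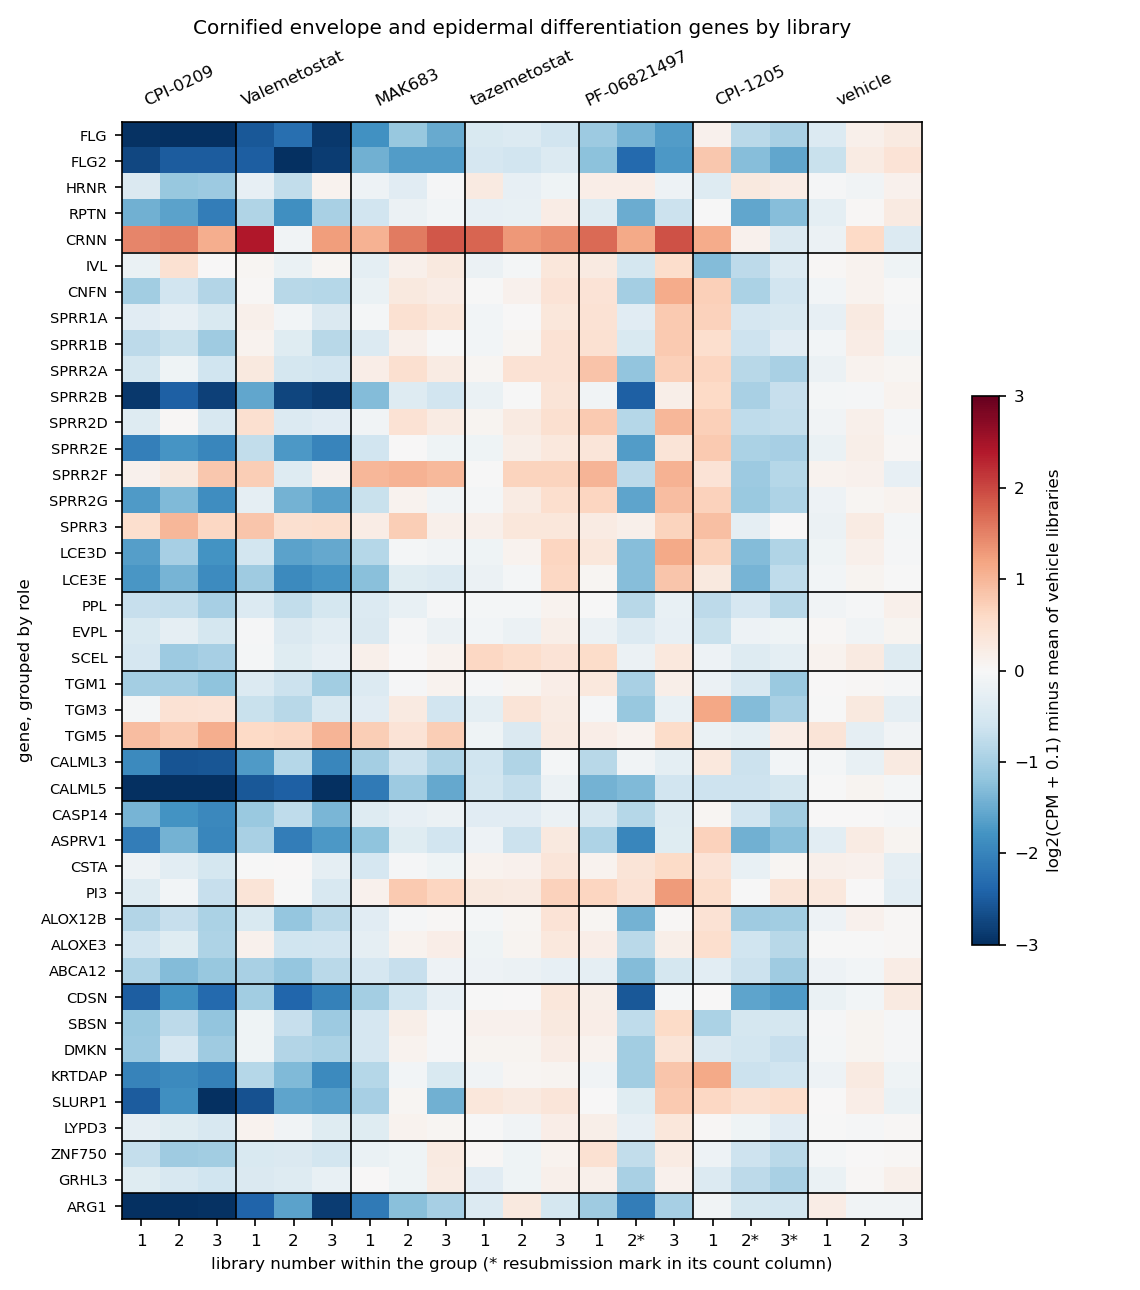
Each row is a gene, grouped by role, and each column a library; the colour is log2(CPM + 0.1) minus the mean of the vehicle libraries, and the scale ends at -3 and 3. The blue blocks at the left hold the falls in FLG, FLG2, CALML5, CALML3, SPRR2B and ARG1 with CPI-0209 and Valemetostat, CRNN is red in most treated libraries, and the starred columns, with the resubmission mark in the count column, are bluer than the other columns of their group.

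Of the S100-fused type proteins, the family that includes filaggrin, 4 of 5 fell with CPI-0209 and 1 rose. FLG, the filaggrin precursor (chr1:152302175-152325203, minus strand, hg38), had 9.75, 7.18 and 9.08 CPM with CPI-0209, 13.2, 15.9 and 10.3 CPM with Valemetostat, 21.9, 35.1 and 27.0 CPM with MAK683, 55.7, 57.8 and 51.6 CPM with tazemetostat, 36.4, 29.2 and 24.2 CPM with PF-06821497, 83.7, 44.3 and 39.4 CPM with CPI-1205 and 57.9, 85.0 and 93.1 CPM with vehicle. Every library of CPI-0209, Valemetostat, MAK683, PF-06821497 and tazemetostat was below every vehicle library, and the CPI-1205 libraries overlapped them. The log2 fold change was -3.18 ± 0.28 (adjusted p = 2.70e-08) with CPI-0209, -2.58 ± 0.26 (adjusted p = 4.22e-07) with Valemetostat, -1.49 ± 0.25 (adjusted p = 2.38e-04) with MAK683 and -1.40 ± 0.25 (adjusted p = 0.00103) with PF-06821497 (SE; edgeR). It was -0.52 ± 0.24 with tazemetostat and -0.50 ± 0.24 with CPI-1205, neither past the threshold, and from CPI-1205 library 1 alone, without the libraries marked by either reading, the value was 0.13.

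FLG2, a filaggrin relative, had 0.725, 0.862 and 0.860 CPM with CPI-0209, 0.887, 0.247 and 0.662 CPM with Valemetostat and 3.35, 6.38 and 7.13 CPM with vehicle, with no overlap with vehicle for either compound. The log2 fold changes were -2.78 ± 0.55 (adjusted p = 3.64e-04) and -3.21 ± 0.55 (adjusted p = 1.54e-04). FLG2 also fell with MAK683 (-1.71 ± 0.48, adjusted p = 0.0186) and with PF-06821497 (-1.83 ± 0.48, adjusted p = 0.0184, edgeR). Both calls were lost without vehicle library 2 or 3, the MAK683 call also without any 1 of its own libraries and the PF-06821497 call without its library 2 or 3. RPTN, or repetin, had 13.6, 12.01 and 8.70 CPM with CPI-0209 and 29.9, 37.9 and 44.5 CPM with vehicle, all lower than vehicle (-1.70 ± 0.36, adjusted p = 9.95e-04 by edgeR), and also fell with Valemetostat (-1.21 ± 0.35, adjusted p = 0.0148), a call lost without Valemetostat library 2 or vehicle library 3. HRNR, or hornerin, had 4.12, 2.53 and 2.58 CPM with CPI-0209 and 5.52, 5.25 and 6.19 CPM with vehicle, a change of -0.86 ± 0.25 (adjusted p = 0.00761) by edgeR. CRNN, cornulin, a protein of oesophageal and other squamous linings, went the other way. It had 0.780, 0.805 and 0.573 CPM with CPI-0209, 1.59, 0.197 and 0.662 CPM with Valemetostat, 0.556, 0.831 and 1.05 CPM with MAK683, 0.935, 0.602 and 1.10 CPM with PF-06821497 and 0.181, 0.378 and 0.140 CPM with vehicle. All of these stood above every vehicle library except Valemetostat library 2, and all are low counts. With tazemetostat CRNN had 0.959, 0.684 and 0.734 CPM, also above every vehicle library. It was not called there, and its fold change ran from 1.47 to 2.26 with single libraries left out. With CPI-1205 CRNN had 0.590, 0.248 and 0.134 CPM, overlapping vehicle. The log2 fold change was 1.61 ± 0.62 (adjusted p = 0.0417) with CPI-0209, 1.78 ± 0.59 (adjusted p = 0.0283) with Valemetostat, 1.77 ± 0.60 (adjusted p = 0.0478) with MAK683 and 1.87 ± 0.58 (adjusted p = 0.0459) with PF-06821497 by edgeR. Each of these calls was lost when vehicle library 1 or vehicle library 3 was left out, the call with CPI-0209 or MAK683 also when any of that compound's own libraries was, that with Valemetostat without its library 1 and that with PF-06821497 without its library 1 or 3 or without vehicle library 2. Over these fits the fold changes ran from 0.82, with Valemetostat without its library 1, to 2.40, with PF-06821497 without vehicle library 2.

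Among the 13 envelope precursors, the soluble proteins that are cross-linked into the shell, 6 fell and 1 rose with CPI-0209, and the SPRR2 genes gave unlike values. SPRR2B (chr1:153070224-153070840, minus strand) had 3.51, 4.77 and 3.73 CPM with CPI-0209, 8.96, 3.85 and 3.64 CPM with Valemetostat, 10.8, 20.2 and 17.8 CPM with MAK683 and 25.5, 25.9 and 28.5 CPM with vehicle. All CPI-0209, Valemetostat and MAK683 libraries lay below all vehicle libraries. It fell with CPI-0209 (-2.73 ± 0.58, adjusted p = 0.00116) and with Valemetostat (-2.27 ± 0.55, adjusted p = 0.00507, edgeR). SPRR2E had 108, 131 and 114 CPM with CPI-0209 and 387, 502 and 458 CPM with vehicle, without overlap, and fell by edgeR (-1.93 ± 0.51, adjusted p = 0.00653). With Valemetostat the SPRR2E value was -1.39 ± 0.50 (adjusted p = 0.0512) by edgeR, just short of the threshold. SPRR2G had 98.6, 128 and 87.5 CPM with CPI-0209 and 286, 336 and 342 CPM with vehicle (-1.61 ± 0.56, adjusted p = 0.0295 by edgeR), a call lost without any 1 of the CPI-0209 libraries or vehicle library 2 or 3. By contrast SPRR2A, whose printed promoter carries both an AP-1 match and a TATA box, had 186, 246 and 177 CPM with CPI-0209 and 239, 291 and 278 CPM with vehicle. Its CPI-0209 libraries overlapped the vehicle libraries, and its fold change of -0.41 ± 0.43 (adjusted p = 0.483) did not pass by edgeR. SPRR2D had 284, 377 and 266 CPM with CPI-0209 and 345, 408 and 359 CPM with vehicle, again overlapping. Its fold change was -0.26 ± 0.41 and that of SPRR2F 0.42 ± 0.41 with CPI-0209, neither past the threshold. Of the distinct 150-base stretches of their transcripts, another gene shares 59 of 560 in SPRR2A, 44 of 468 in SPRR2B and 22 of 585 in SPRR2E, so some of their reads may have been split between copies.

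SPRR3, a precursor of oesophageal and oral linings, rose with CPI-0209, with 445, 631 and 487 CPM against 278, 372 and 302 CPM with vehicle and no overlap (0.71 ± 0.23, adjusted p = 0.0183 by edgeR). Leaving out CPI-0209 library 2, vehicle library 1 or vehicle library 3 ended this call. Involucrin, IVL, had 143, 226 and 166 CPM with CPI-0209 and 167, 177 and 149.56 CPM with vehicle, overlapping, and its fold change was 0.12 ± 0.24 (adjusted p = 0.735) by edgeR (95% interval -0.38 to 0.62). SPRR1B fell with CPI-0209 (303, 326 and 248 CPM against 489, 604 and 474 CPM with vehicle, -0.84 ± 0.30, adjusted p = 0.0312 by edgeR), but not without any single CPI-0209 library or vehicle library 2 or 3. SPRR1A had a fold change of -0.37 ± 0.29 and CNFN, cornifelin, one of -0.82 ± 0.44, neither past the threshold. The late envelope genes LCE3E (-1.67 ± 0.47, adjusted p = 0.00969) and LCE3D (-1.44 ± 0.55, adjusted p = 0.0482) fell with CPI-0209 by edgeR. LCE3E also fell with Valemetostat (-1.54 ± 0.47, adjusted p = 0.0214, edgeR), a call lost without Valemetostat library 2 or 3 or vehicle library 2 or 3. The LCE3D call was lost when any 1 of the CPI-0209 or vehicle libraries was left out.

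**Figure D3:**
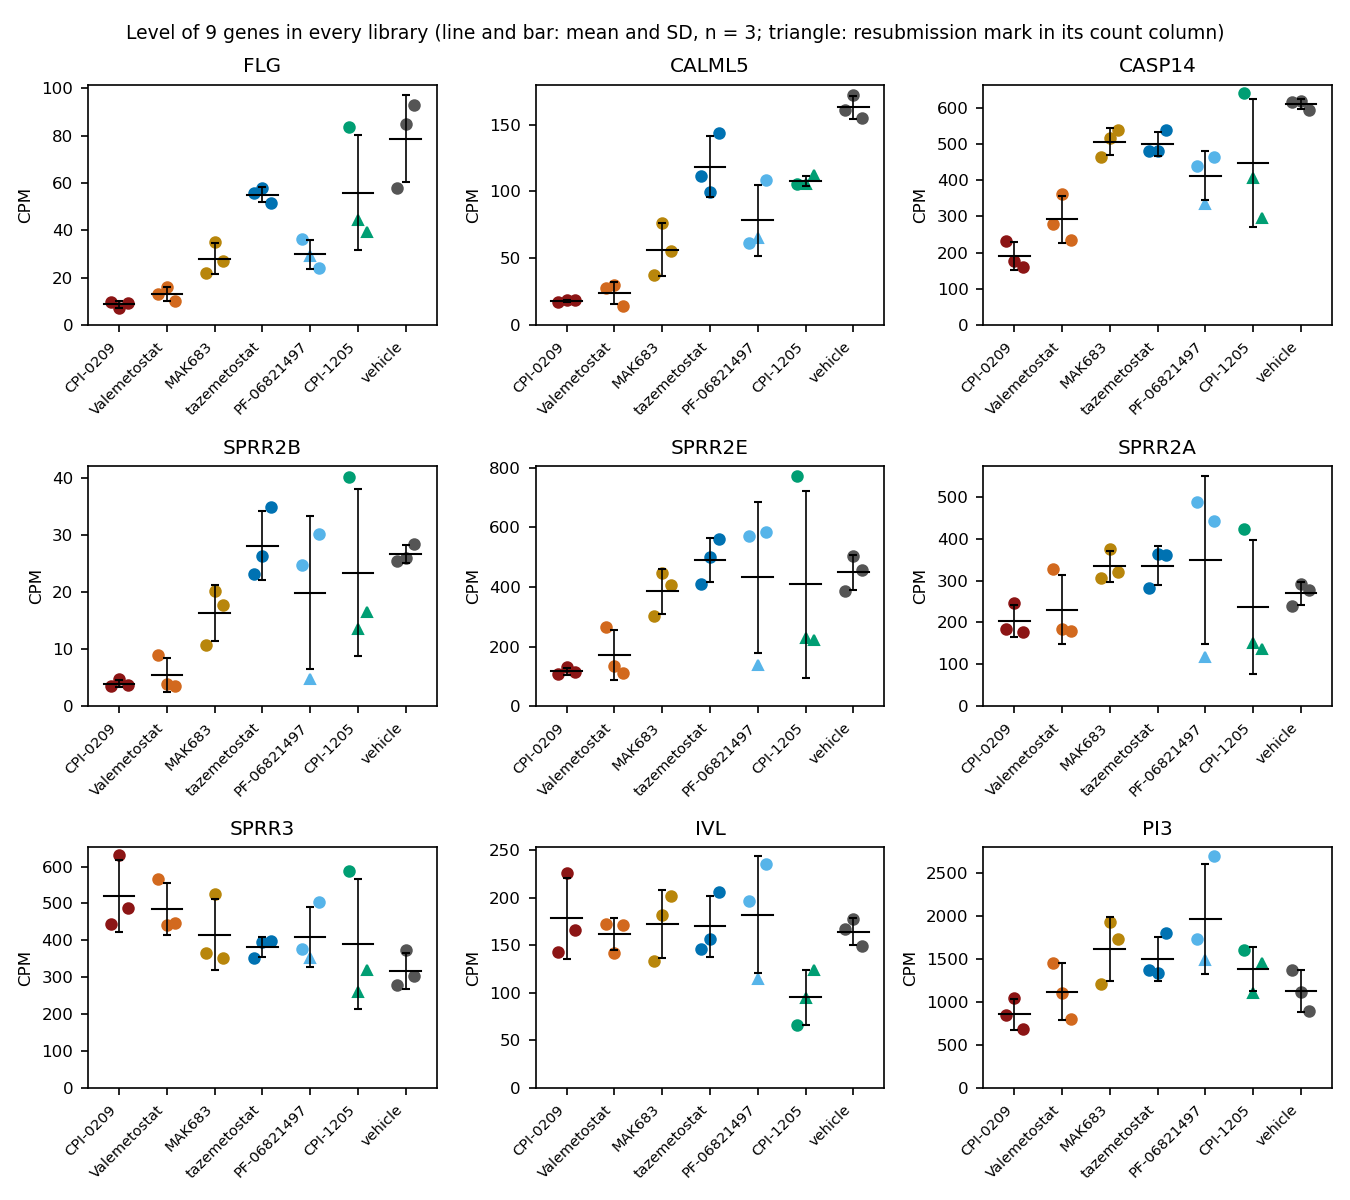
The level in CPM of 9 genes, 1 panel each, for every library, with the mean and SD of each group of 3; the groups run from CPI-0209 at the left to vehicle at the right, and triangles mark libraries with the resubmission mark in their count column. In the FLG panel the CPI-0209 libraries lie at 7.18 to 9.75 CPM and the vehicle libraries at 57.9 to 93.1 CPM, while in the IVL panel the CPI-0209 libraries, at 143 to 226 CPM, overlap the vehicle libraries.

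The scaffold genes fell less steeply. PPL, periplakin, and EVPL, envoplakin, form the platform on which the envelope is assembled, and SCEL, sciellin, is a further precursor at the cell edge. PPL had 297, 296 and 243 CPM with CPI-0209 and 447, 470.2 and 535 CPM with vehicle, without overlap (-0.80 ± 0.16, adjusted p = 5.65e-04 by edgeR), and also fell with Valemetostat (-0.55 ± 0.16, adjusted p = 0.0148 by edgeR). That last call was lost without Valemetostat library 2 or vehicle library 3. With CPI-1205 PPL had 278, 341 and 272 CPM, below every vehicle library, but was not called by edgeR. SCEL had 54.6, 36.7 and 38.8 CPM with CPI-0209 and 83.8, 94.3 and 59.7 CPM with vehicle (-0.87 ± 0.18, adjusted p = 4.70e-04 by edgeR). With tazemetostat SCEL had 119, 112 and 104 CPM, above every vehicle library, but was not called. EVPL had 240.0, 273 and 227 CPM with CPI-0209 and 332, 304 and 346 CPM with vehicle (-0.41 ± 0.15, adjusted p = 0.0304 by edgeR), a call kept under 11 of 20 alternatives and lost without library 1 or 3 of either group.

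The transglutaminases moved in opposite directions. TGM1, the membrane-bound enzyme whose loss causes lamellar ichthyosis, had 76.3, 75.9 and 66.9 CPM with CPI-0209 and 155, 159 and 149.98 CPM with vehicle. The groups did not overlap, and it fell by edgeR (-1.08 ± 0.25, adjusted p = 0.00185). TGM5, which is mutated in acral peeling skin syndrome, had 4.40, 3.97 and 4.97 CPM with CPI-0209, 3.501, 3.55 and 4.69 CPM with Valemetostat and 2.99, 1.85 and 2.10 CPM with vehicle. Both treated groups lay above vehicle throughout, and TGM5 rose with CPI-0209 (0.94 ± 0.24, adjusted p = 0.00296) and Valemetostat (0.76 ± 0.23, adjusted p = 0.0184, edgeR). The Valemetostat call was lost without Valemetostat library 3 or vehicle library 2 or 3. TGM3, an epidermal and hair follicle enzyme, had 2.17, 3.10 and 3.06 CPM with CPI-0209 and 2.26, 2.81 and 1.86 CPM with vehicle, overlapping, and a fold change of 0.25 ± 0.47 that did not pass.

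Both calmodulin-like genes fell. CALML5 (chr10:5498697-5499555, minus strand), a calcium-binding protein of the differentiating epidermis, had 17.2, 18.7 and 18.5 CPM with CPI-0209, 27.6, 29.8 and 14.2 CPM with Valemetostat, 37.3, 76.4 and 55.7 CPM with MAK683, 112, 99.8 and 144 CPM with tazemetostat, 61.1, 65.1 and 109 CPM with PF-06821497, 105, 106 and 112 CPM with CPI-1205 and 161, 172 and 155 CPM with vehicle. All treated libraries were below all vehicle libraries for each of the 6 compounds. CALML5 fell with CPI-0209 (-3.17 ± 0.27, adjusted p = 2.89e-08), Valemetostat (-2.77 ± 0.27, adjusted p = 2.48e-07), MAK683 (-1.53 ± 0.25, adjusted p = 2.16e-04) and PF-06821497 (-1.06 ± 0.25, adjusted p = 0.00959) by edgeR. The PF-06821497 call was lost without PF-06821497 library 1, and when the 3 libraries marked in the titles or the 3 marked in the count columns were left out together. With tazemetostat the fold change was -0.46 ± 0.25 and with CPI-1205 -0.60 ± 0.25, neither past the threshold. CALML3 had 5.35, 3.28 and 3.34 CPM with CPI-0209, 6.16, 11.2 and 5.13 CPM with Valemetostat, 10.02, 13.0 and 10.7 CPM with MAK683 and 19.6, 17.2 and 24.7 CPM with vehicle. The highest CPI-0209 library was below the lowest vehicle library. It fell with CPI-0209 (-2.34 ± 0.32, adjusted p = 5.66e-06), Valemetostat (-1.45 ± 0.29, adjusted p = 8.23e-04) and MAK683 (-0.87 ± 0.29, adjusted p = 0.0443) by edgeR. The MAK683 call was lost when any 1 of the MAK683 or vehicle libraries was left out.

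Of the 4 proteases and protease inhibitors, 2 fell with CPI-0209. CASP14, the caspase that helps break filaggrin down in the cornified layer, had 233, 177 and 159 CPM with CPI-0209, 281, 362 and 235 CPM with Valemetostat and 617, 619.8 and 596 CPM with vehicle, with no overlap. It fell with CPI-0209 (-1.69 ± 0.21, adjusted p = 2.37e-06) and Valemetostat (-1.06 ± 0.21, adjusted p = 6.54e-04, edgeR). ASPRV1, an aspartic protease that cleaves profilaggrin, had 7.02, 11.2 and 7.64 CPM with CPI-0209, 15.1, 7.06 and 8.99 CPM with Valemetostat and 24.2, 35.2 and 31.4 CPM with vehicle. It fell with both compounds (-1.80 ± 0.53, adjusted p = 0.0115 and -1.54 ± 0.51, adjusted p = 0.0342 by edgeR). The CPI-0209 call was lost without CPI-0209 library 1, and the Valemetostat call without Valemetostat library 2 or 3 or vehicle library 2 or 3. CSTA, the protease inhibitor cystatin A, had 317, 281 and 245 CPM with CPI-0209 and 392, 382 and 291 CPM with vehicle, overlapping, with a fold change of -0.34 ± 0.17 that did not pass. PI3 had 1724, 1484 and 2691 CPM with PF-06821497 and 1371, 1114 and 889 CPM with vehicle, without overlap, and rose by edgeR (0.81 ± 0.25, adjusted p = 0.0429), a call lost without PF-06821497 library 3 or vehicle library 2 or 3. With CPI-0209 its fold change was -0.39 ± 0.25, not past the threshold.

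Of the 3 barrier lipid genes, ABCA12, the transporter that loads lipid into lamellar bodies, fell with CPI-0209 and Valemetostat. It had 82.4, 63.7 and 71.7 CPM with CPI-0209, 80.1, 70.1 and 89.8 CPM with Valemetostat and 141, 149 and 184 CPM with vehicle, and neither treated group overlapped vehicle (-1.12 ± 0.21, adjusted p = 2.25e-04 and -0.98 ± 0.21, adjusted p = 0.00131 by edgeR). The epidermal lipoxygenases act in turn on barrier ceramides. ALOX12B had 20.1, 23.0 and 19.1 CPM with CPI-0209 and 33.5, 40.5 and 38.2 CPM with vehicle. ALOXE3 had 14.3, 16.5 and 11.3 CPM with CPI-0209 and 21.1, 21.1 and 22.0 CPM with vehicle. The fold changes of ALOX12B (-0.85 ± 0.37) and ALOXE3 (-0.60 ± 0.30) did not pass with CPI-0209, although all their CPI-0209 libraries lay below all vehicle libraries.

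Among the secreted and surface proteins, 5 of 6 fell with CPI-0209. SLURP1, a secreted ligand of nicotinic acetylcholine receptors, had 0.111, 0.230 and 0 CPM with CPI-0209, 0.0934, 0.296 and 0.276 CPM with Valemetostat and 1.09, 1.26 and 0.932 CPM with vehicle. Both treated groups were below all vehicle libraries, near the floor of 3 counts, and SLURP1 fell by edgeR with CPI-0209 (-3.02 ± 0.57, adjusted p = 2.39e-04) and Valemetostat (-2.29 ± 0.49, adjusted p = 0.00131). KRTDAP, a small secreted keratinocyte protein, had 25.3, 27.1 and 24.8 CPM with CPI-0209 and 91.4, 123 and 93.2 CPM with vehicle (-1.99 ± 0.48, adjusted p = 0.00320 by edgeR). It was also called with Valemetostat (-1.32 ± 0.46, adjusted p = 0.0446 by edgeR), but not when any 1 of the Valemetostat or vehicle libraries was left out. CDSN, corneodesmosin, which holds corneocytes together, had 14.3, 22.5 and 15.7 CPM with CPI-0209 and 69.2, 75.1 and 95.8 CPM with vehicle (-2.19 ± 0.59, adjusted p = 0.00747 by edgeR), subject to its overlap with PSORS1C1. CDSN was called with Valemetostat too (-1.71 ± 0.57, adjusted p = 0.0363 by edgeR), but not without Valemetostat library 2 or 3 or any 1 of the vehicle libraries. SBSN, suprabasin, had 365, 459.5 and 350.5 CPM with CPI-0209 and 771, 829.7 and 771 CPM with vehicle. DMKN, dermokine, had 245, 371 and 250.63 CPM with CPI-0209 and 504, 553 and 509 CPM with vehicle. Neither gene's groups overlapped, and SBSN (-1.01 ± 0.26, adjusted p = 0.00345) and DMKN (-0.85 ± 0.27, adjusted p = 0.0145), both on chromosome 19, fell with CPI-0209 by edgeR, DMKN not without CPI-0209 library 1 or 3. LYPD3, a surface protein, had 202, 189 and 174 CPM with CPI-0209 and 244, 238 and 250.55 CPM with vehicle, without overlap, but its fold change of -0.38 ± 0.16 did not pass.

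Of the 2 transcription factors, ZNF750, a driver of late keratinocyte differentiation, had 42.1, 33.0 and 33.2 CPM with CPI-0209 and 66.2, 69.6 and 70.2 CPM with vehicle and fell (-0.93 ± 0.21, adjusted p = 0.00154 by edgeR). GRHL3, a grainyhead-like factor of barrier formation, had 42.8, 39.8 and 36.5 CPM with CPI-0209, 41.4, 32.2 and 27.9 CPM with CPI-1205 and 48.3, 56.4 and 61.9 CPM with vehicle. Neither fold change passed, at -0.48 ± 0.21 with CPI-0209 and -0.72 ± 0.21 with CPI-1205. ARG1, arginase, an enzyme of the urea cycle that is also made in the upper epidermis, had 0.0557, 0 and 0.0956 CPM with CPI-0209, 0.187, 0.395 and 0.110 CPM with Valemetostat, 0.247, 0.538 and 0.666 CPM with MAK683, 0.623, 0.258 and 0.659 CPM with PF-06821497 and 1.67, 1.301 and 1.304 CPM with vehicle. All treated libraries in this set lay below all vehicle libraries. Over the 3 libraries of each group there were 2 counts with CPI-0209 and 96 with vehicle, a ratio of 0.0341 after scaling to library totals (95% interval for counting error only, 0.00408 to 0.127). ARG1 fell with Valemetostat (-2.58 ± 0.46, adjusted p = 2.16e-04), MAK683 (-1.53 ± 0.41, adjusted p = 0.0136) and PF-06821497 (-1.48 ± 0.40, adjusted p = 0.0222) by edgeR. The MAK683 call was lost without MAK683 library 1 or vehicle library 1, and the PF-06821497 call without PF-06821497 library 2 or vehicle library 1 or 3.

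**Figure D4:**
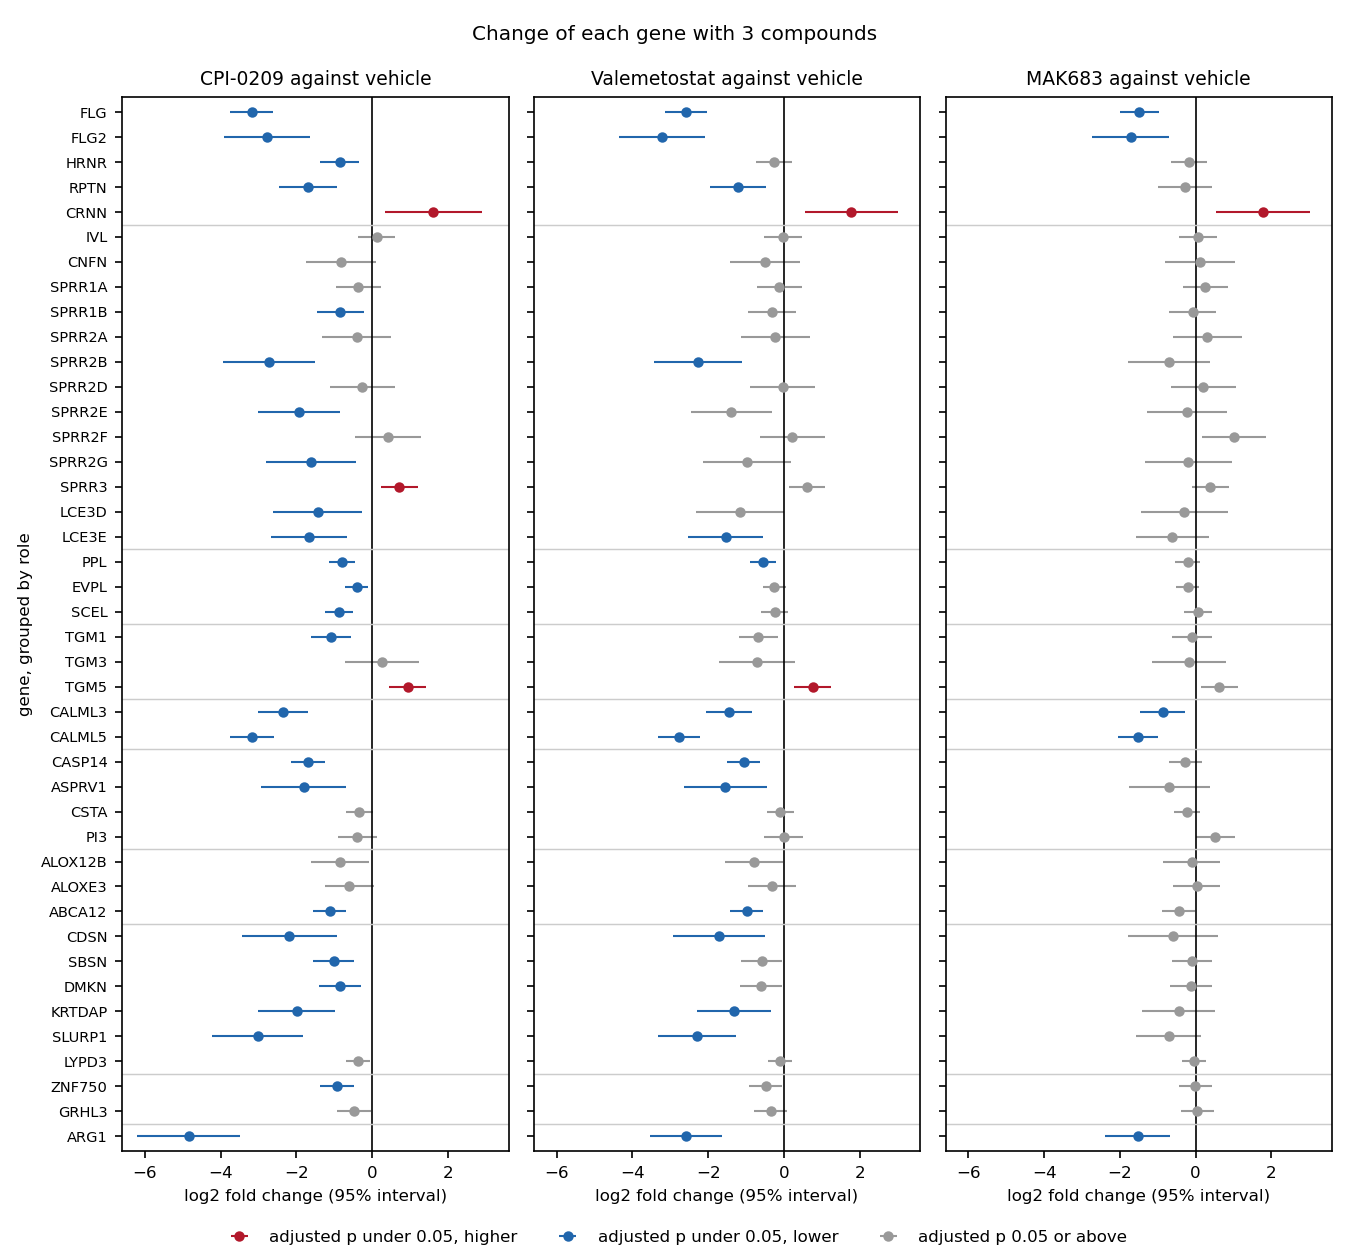
The log2 fold change against vehicle with its 95% interval for each of the 42 genes, grouped by role, with CPI-0209, Valemetostat and MAK683 drawn in that order. FLG and CALML5 lie left of 0 for all 3 compounds, at -3.18 and -3.17 with CPI-0209, while SPRR3, TGM5 and CRNN lie right of 0.

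The 15 pairs of compounds were compared at the same dose and day, with p-values adjusted over all genes within each pair. In these pairs, counts at an unadjusted p under 0.05 cover the 42 genes only and are not set against all genes. The same holds here and in the next paragraph for counts by other tools, without the low-count filter or with libraries left out. Such counts do not set the 42 genes apart from all genes. CPI-0209 and Valemetostat differed in 0 of the 42 genes by edgeR (0% of all genes), with 7 at an unadjusted p under 0.05 and 0 by DESeq2 or limma-voom; without the filter on low counts edgeR called 10. For FLG the difference, CPI-0209 over Valemetostat, was -0.60 ± 0.27 with a 95% interval of -1.17 to -0.03, and for CALML5 -0.40 ± 0.26 with -0.95 to 0.15. CPI-0209 differed from MAK683 in 16 genes (9.08% of all genes), led by CASP14 (-1.42 ± 0.21, adjusted p = 5.48e-04) and FLG (-1.70 ± 0.27, adjusted p = 9.26e-04), both lower with CPI-0209 by edgeR, but in 7 without CPI-0209 library 2, in 6 without CPI-0209 library 3 or MAK683 library 3 and in 8 without MAK683 library 2. It differed from tazemetostat in 31 genes (37.0%), from PF-06821497 in 25 (22.6%; 16 without CPI-0209 library 3 or PF-06821497 library 3) and from CPI-1205 in 17 (35.2%). CALML5 was lower with CPI-0209 in each of these 3 pairs, at -2.71 ± 0.27, -2.11 ± 0.27 and -2.57 ± 0.27 in that order, and FLG at -2.67 ± 0.27, -1.79 ± 0.27 and -2.69 ± 0.27.

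Valemetostat and MAK683 differed in 0 genes by edgeR (0.0273%), with 12 at an unadjusted p under 0.05, 2 by DESeq2 and 0 by limma-voom; for CALML5 the difference was -1.24 ± 0.26 with a 95% interval of -1.78 to -0.70. Valemetostat differed from tazemetostat in 18 genes (20.3%; 11 without Valemetostat library 2 or tazemetostat library 1, 10 without tazemetostat library 3 and 8 without Valemetostat library 3), from PF-06821497 in 4 (4.62%), which were FLG, CALML3, CALML5 and SLURP1, and from CPI-1205 in 11 (21.5%; 6 without Valemetostat library 3). MAK683, the EED binder, differed from tazemetostat in 3 genes (9.20%), FLG, CALML5 and ARG1, from PF-06821497 in 0 (1.17%; 2 at an unadjusted p under 0.05, DESeq2 1, limma-voom 0) and from CPI-1205 in 8 (15.4%). MAK683 differed from tazemetostat in 0 genes without MAK683 library 1 and in 1 without MAK683 library 3 or tazemetostat library 2. It differed from CPI-1205 in 3 genes without MAK683 library 1, in 5 without MAK683 library 2 or CPI-1205 library 2, in 1 without MAK683 library 3 and in 4 without CPI-1205 library 3. With all libraries, FLG, CALML5 and SLURP1 were lower with MAK683 than with CPI-1205, while IVL, SPRR2F, PPL, TGM5 and GRHL3 were higher. FLG and CALML5 were lower with Valemetostat than with tazemetostat, and lower than with CPI-1205. Tazemetostat differed in 0 genes from PF-06821497 (2.40%; 5 at an unadjusted p under 0.05, DESeq2 1, limma-voom 0) and in 0 from CPI-1205 (0%; 10 at an unadjusted p under 0.05, DESeq2 2, limma-voom 0). PF-06821497 differed from CPI-1205 in 2 genes (4.80%), IVL (0.94 ± 0.24, adjusted p = 0.0283) and FLG (-0.90 ± 0.25, adjusted p = 0.0390) by edgeR. IVL was higher with PF-06821497, with 197, 115 and 236 CPM against 66.7, 94.7 and 124 CPM with CPI-1205, and PF-06821497 library 2, the lowest of its group at 115 CPM, lay within the CPI-1205 range. FLG was lower with PF-06821497. The IVL call was lost without PF-06821497 library 1 or 3 or CPI-1205 library 1 or 2, with the muscle covariate, with a term for the mark in the count columns and without the libraries marked in the titles. The FLG call was lost without CPI-1205 library 1 or any 1 of the PF-06821497 libraries, by limma-voom, with the replicate block and with the muscle covariate; without PF-06821497 library 2 this pair differed in 9 genes. A test for any difference among the 6 compounds called 25 of the 42 genes (32.3% of all genes). Without the libraries marked in the count columns CPI-0209 differed from CPI-1205, then a single library, in 32 genes, and without those marked in the titles in 27. The same omissions gave 30 and 15 between CPI-0209 and MAK683, and 25 and 4 between Valemetostat and PF-06821497, against 4 with all libraries.

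With tazemetostat, 3 of the 42 genes and 647 of all genes had an unadjusted p under 0.05, and DESeq2 and limma-voom each called 0 of the 42. With CPI-1205, 11 of the 42 and 2713 of all genes did, DESeq2 called PPL lower and limma-voom called 0. Without the 3 libraries marked in the count columns, IVL was called lower with CPI-1205, at -1.26 (adjusted p = 0.0301, edgeR), from the single library left. Without the 3 marked in the titles, the same CPI-1205 library gave -1.26 (adjusted p = 0.123, edgeR), past no threshold. With PF-06821497 and all libraries, 1309 of all genes were higher and 789 lower than vehicle. Over all genes these were 1278 and 717 without PF-06821497 library 2 alone, and 1223 and 729 without its library 1 alone. Counts without the 3 libraries marked by either reading are of the 42 genes only and do not set them apart. With PF-06821497, 2 of the 42 genes were higher and 4 lower than vehicle with all libraries. The counts were 2 higher and 2 lower without PF-06821497 library 2 alone, 1 and 4 without library 1 alone, 5 and 2 without the 3 libraries marked in the count columns, and 0 and 4 without the 3 marked in the titles.

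Some calls against vehicle were also lost in fits that kept every library, beside those lost against a 1.5-fold change. RLE scaling lost LCE3D and EVPL with CPI-0209 and KRTDAP with Valemetostat. Upper-quartile scaling lost these 3, SPRR1B with CPI-0209, ASPRV1 and CDSN with Valemetostat, and CALML3 with MAK683. A filter at 1 CPM lost EVPL with CPI-0209 and CALML3 with MAK683. The replicate block lost LCE3D with CPI-0209, KRTDAP with Valemetostat, CALML3 with MAK683, and CRNN and PI3 with PF-06821497. The muscle covariate lost SPRR1B, SPRR2G, LCE3D, EVPL, ASPRV1 and DMKN with CPI-0209 and KRTDAP with Valemetostat. By limma-voom CRNN was not called with Valemetostat, MAK683 or PF-06821497, nor PI3 with PF-06821497, and PI3 was lost too in the fit of the 2 groups alone. A term for the mark in the titles lost FLG2 with PF-06821497.

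Genes around the envelope programme were read from lists of other differentiation genes. With CPI-0209, 13 of 16 epidermal keratins fell and 0 rose. Of 13 desmosome genes 11 fell, and of 16 other barrier lipid genes 11. Of 26 other tested genes of the epidermal differentiation complex 7 fell and 1 rose. In that comparison 18.8% of all genes fell and 41.1% were called in either direction. The whole list of these other complex genes summed to 6232 to 6905 CPM with CPI-0209 and 5323 to 7087 CPM with vehicle, overlapping. KRT6B, a keratin of stressed and hyperproliferative epidermis, averaged 316 ± 53.1 CPM with CPI-0209 and 678 ± 80.0 CPM with vehicle (-1.10 ± 0.22, adjusted p = 5.02e-04) by edgeR. DSG3, the desmoglein of lower epidermal layers, averaged 113 ± 33.0 CPM with CPI-0209 and 384 ± 55.1 CPM with vehicle (-1.76 ± 0.22, adjusted p = 2.39e-06), and ELOVL4, which makes the very long fatty acids of barrier ceramides, averaged 44.7 ± 3.28 CPM with CPI-0209 and 105 ± 13.5 CPM with vehicle (-1.24 ± 0.20, adjusted p = 4.14e-05) by edgeR (SD, n = 3 each). Of 25 keratinocyte transcription factors 13 fell and 4 rose, and of 17 desquamation proteases and inhibitors 8 fell and 3 rose. With Valemetostat 6 keratins, 10 desmosome genes and 9 barrier lipid genes fell, and with MAK683 2, 4 and 2. Of the 12 tested luminal urothelial genes 5 fell and 2 rose with CPI-0209. The background shares of these comparisons are those given above.

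Markers of other cells also moved with CPI-0209, and some of them with other compounds. The summed level of 6 endothelial genes was 34.3 to 47.0 CPM with CPI-0209 and 5.31 to 6.29 CPM with vehicle, and 4 of them rose. Of all genes, 22.3% rose with CPI-0209. Skeletal muscle genes summed to 297 to 1842 CPM with CPI-0209, highest in library 3, and to 442 to 522 CPM with vehicle, and 6 of 11 rose. Fibroblast genes summed to 1684 to 4325 CPM with CPI-0209 and 1271 to 2043 CPM with vehicle, with 5 of 9 higher. Adipocyte genes summed to 36.9 to 44.1 CPM with CPI-0209 and 4.87 to 5.98 CPM with vehicle, macrophage and granulocyte genes to 150 to 183 CPM and 144 to 172 CPM, and hair follicle and melanocyte genes to 4.94 to 5.91 CPM and 5.34 to 6.33 CPM. TYROBP, ADIPOQ and KRT85 had no count with vehicle, and KRT35 had none with CPI-0209. Endothelial genes summed to 19.8 to 34.6 CPM with Valemetostat, 25.8 to 29.96 CPM with MAK683 and 11.2 to 15.8 CPM with PF-06821497, all above the vehicle libraries, and 3, 3 and 1 of 6 rose. Of all genes, 15.0%, 10.4% and 5.96% rose with these compounds, in that order. Adipocyte genes summed to 36.1 to 44.0 CPM with Valemetostat, 26.2 to 28.2 CPM with MAK683 and 29.998 to 51.2 CPM with PF-06821497, again above all vehicle libraries, and 2, 2 and 1 of the 2 tested rose. That list holds 5 genes, of which ADIPOQ had no count with Valemetostat, MAK683 or PF-06821497 either. With tazemetostat, where none of the 42 genes was called, adipocyte genes summed to 8.82 to 11.5 CPM and endothelial genes to 6.30 to 7.77 CPM. Both ranges lay above all vehicle libraries, the endothelial one narrowly. With CPI-1205 the adipocyte sums were 3.77 to 12.8 CPM and the endothelial sums 4.25 to 6.40 CPM, both overlapping vehicle. Skeletal muscle genes summed to 240 to 323 CPM with Valemetostat and 341 to 425 CPM with MAK683, below all vehicle libraries, and 371 to 457 CPM with PF-06821497. The part of these cells in the changes of the 42 genes was not tested, apart from a fit with a skeletal muscle covariate, in which 21 of the 42 genes were lower and 3 higher with CPI-0209, against 26 and 3 without it. Over all genes 4432 were lower and 4554 higher with the covariate.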

How the data were processed

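Libraries were RNA-seq of bulk tumour tissue. Per the submitters' processing notes the tools were STAR 2.7.3a and RSEM 1.3.1 with genome hg38. The sources used here do not name the counting program, the annotation release, the strand setting or a step against mouse reads. The deposited values are whole-number counts per gene from the authors. One edgeR 4.0.16 quasi-likelihood fit (limma 3.58.1, R 4.3.3) held all 21 libraries, with a term for each of 7 groups, TMM scaling (factors 0.946 to 1.08) and the low-count filter of edgeR, and p-values were adjusted by Benjamini-Hochberg over 21958 genes within each comparison; calls are adjusted p under 0.05. Levels are CPM on TMM-scaled library sizes. The steps were tested on simulated data. The groups share replicate numbers, but these did not pair the libraries. Alternatives were other scalings and filters, DESeq2 1.42.0, limma-voom, edgeR's glmTreat against a 1.5-fold change, fits of the 2 groups alone, a replicate block, terms for or omission of libraries with the resubmission mark, a muscle covariate and leaving out each library; those by the mark in the count columns were chosen after seeing the data.

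The 42 genes and all lists were chosen with earlier results of these data known. Values per library, for some or all groups, were given for up to 4 genes of each role with the highest mean CPM, and for the 3 with the smallest p in each comparison with vehicle. The 2 with the smallest p were named in each pair that had calls. Of the context lists only some of the genes with the smallest p were named. SPRR2A, SPRR2B and SPRR2G with their values, the promoters shown and the motifs were chosen after values were seen.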

Additional observations from a re-analysis of the deposited data

How the results depend on the processing

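All counts are of the 42 genes unless all genes are named. For what follows the cause was not tested. Where a count below has no number over all genes beside it, it does not set the 42 genes apart from all genes. Of 29 calls with CPI-0209, 15 held under all 20 alternatives, as did 8 of 17 with Valemetostat, 2 of 6 with MAK683 (FLG and CALML5) and 1 of 6 with PF-06821497 (FLG). Depth limits CRNN, SLURP1 and ARG1, which have few counts.

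Leaving out each library gave 20 to 24 lower and 1 to 3 higher with CPI-0209, 9 to 18 and 0 to 2 with Valemetostat, 2 to 3 and 0 to 1 with MAK683, and 2 to 4 and 0 to 2 with PF-06821497. It gave 20 to 34 for any difference among compounds. Between compounds, CPI-0209 differed from Valemetostat in 0 to 1 (1 without CPI-0209 library 1), from MAK683 in 6 to 14, from tazemetostat in 22 to 30, from PF-06821497 in 16 to 31 and from CPI-1205 in 13 to 21. Valemetostat differed from tazemetostat in 8 to 18, from PF-06821497 in 2 to 16 and from CPI-1205 in 6 to 11. MAK683 differed from tazemetostat in 0 to 3, from PF-06821497 in 0 to 1 and from CPI-1205 in 1 to 8, and PF-06821497 from CPI-1205 in 0 to 9. The IVL fold change with CPI-0209 ran from -0.10, without CPI-0209 library 2, to 0.29.

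Without the low-count filter 24 were lower with Valemetostat, 11 lower and 3 higher with MAK683, 8 lower with PF-06821497 and 10 lower with CPI-1205. Of all 48135 genes then fitted, 2426 were lower with Valemetostat, 745 with PF-06821497 and 234 with CPI-1205. With MAK683 1067 of all genes were lower and 2702 higher. In that setting CPI-0209 differed from Valemetostat in 10, from MAK683 in 32 and from CPI-1205 in 32. Valemetostat differed from MAK683 in 17, from tazemetostat in 29, from PF-06821497 in 26 and from CPI-1205 in 18, MAK683 from tazemetostat in 12, from PF-06821497 in 6 and from CPI-1205 in 17, tazemetostat from PF-06821497 in 6 and from CPI-1205 in 11, PF-06821497 from CPI-1205 in 20, and any compounds in 38.

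Against a 1.5-fold change, 16 were lower and 0 higher with CPI-0209, 8 and 0 with Valemetostat, 2 and 0 with MAK683, and 1 and 0 with PF-06821497. Over all 21958 genes these counts were 1015 and 3287, 483 and 1897, 108 and 1212, and 29 and 412, in that order. CPI-0209 then differed from MAK683 in 3, tazemetostat in 16, PF-06821497 in 10 and CPI-1205 in 11, Valemetostat from tazemetostat in 6, PF-06821497 in 2 and CPI-1205 in 7, and 0 were called between MAK683 and tazemetostat or CPI-1205 or between PF-06821497 and CPI-1205.

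DESeq2 called 1 lower with CPI-1205, and between compounds 2 for Valemetostat against MAK683, 7 for Valemetostat against PF-06821497, 1 for MAK683 against PF-06821497, 1 for tazemetostat against PF-06821497, 2 for tazemetostat against CPI-1205 and 5 for PF-06821497 against CPI-1205. It called 41 of all genes lower with CPI-1205. limma-voom called 1 higher with Valemetostat, 0 with MAK683 and 0 with PF-06821497, and 1 between PF-06821497 and CPI-1205. Of all genes it called 3209 higher with Valemetostat, 2185 with MAK683 and 1132 with PF-06821497. Fits of the 2 groups alone gave 2 higher and 8 lower with MAK683 and 1 higher with PF-06821497. Over all genes they gave 2344 higher and 1272 lower with MAK683 and 957 higher with PF-06821497. The replicate numbers do not pair the libraries. With the replicate block 2 were higher with MAK683, 0 with PF-06821497 and 1 differed between PF-06821497 and CPI-1205. Over all genes 2173 were then higher with MAK683 and 1135 with PF-06821497. With the muscle covariate 5 differed between MAK683 and CPI-1205 and 0 between PF-06821497 and CPI-1205.

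With a term for the mark in titles, Valemetostat differed from PF-06821497 in 8, MAK683 from PF-06821497 in 1 and tazemetostat from CPI-1205 in 1. Without those libraries 0 were higher with PF-06821497, CPI-0209 differed from CPI-1205 in 27, Valemetostat from MAK683 in 1, MAK683 from PF-06821497 in 1 and tazemetostat from PF-06821497 in 2, and FLG with CPI-1205 was at 0.13. With a term for the mark in count columns 2 were higher with MAK683 and 7 with PF-06821497. Over all genes 2533 were higher with MAK683 and 1459 with PF-06821497. CPI-0209 then differed from MAK683 in 30 and from CPI-1205 in 32, and Valemetostat from MAK683 in 3, tazemetostat in 28, PF-06821497 in 23 and CPI-1205 in 27. Without those libraries 2 were higher with MAK683, 5 higher and 2 lower with PF-06821497 and 1 lower with CPI-1205. CPI-0209 differed from MAK683 in 30 and from CPI-1205 in 32, Valemetostat from MAK683 in 3, PF-06821497 in 25 and CPI-1205 in 24, tazemetostat from CPI-1205 in 1 and PF-06821497 from CPI-1205 in 5, and FLG with CPI-1205 was at 0.13.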
